A study of Mus musculus with 48 samples.

Results

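The myelin genes of oligodendrocytes described here are 9 targets of a deposited spatial transcriptomics table: Mbp, Mobp, Cnp, Mag, Mog, Mal, Cldn11, Ermn and Opalin. They were taken by gene symbol, and all 9 were found among the 19962 gene targets of the table. Each value was divided by the median target of its own column, and is given as a ratio to that median and, where stated, to the negative control probe, which matches no mouse transcript and marks the background. Probes bind with unlike efficiency, so levels are compared between columns and not between genes.

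RNA was measured in mouse brain sections with GeoMx digital spatial profiling, in which barcoded probes are released by light from chosen segments of a section and their tags are sequenced. The table holds 16 columns headed by genotype and number, namely 5 of 5xFAD-LynKO, 5 of 5xFAD and 6 of WT brain. 5xFAD mice are transgenic animals that express mutant human transgenes, APP among them, in neurons under the Thy1 promoter and deposit amyloid. The 5xFAD-LynKO group is 5xFAD crossed to a knockout of Lyn, a Src-family kinase, so it carries the 5xFAD transgenes too, and WT animals carry neither change. An APP group named in the design was not analysed here. The age and sex of the animals, and whether columns come from separate animals, are not stated by the labels. The design gives 6 regions per brain slice and the titles give 24 regions for the 4 named groups, so the columns of a genotype may all come from 1 slice. Every p-value below therefore measures the spread between segments, which may be of 1 animal per genotype, and is then too small for a difference between animals. By the design text the columns were taken as segments stained for TMEM119, a microglial marker, and were not matched to single titled segments.

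Myelin is the membrane that oligodendrocytes wrap around axons in layers, and it is dense in white matter tracts and sparser in grey matter. Myelin basic protein, which Mbp encodes, holds the cytoplasmic faces of the layers together, and its mRNA is carried out into the processes and translated there, as Mobp mRNA is. Other members sit in particular places of the sheath: Mag at the face toward the axon, Mog on the outermost surface, Cnp in the channels of cytoplasm, and Cldn11 in the tight junctions that seal the layers.

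Promoter windows of 300 bases, from 250 before to 50 after a start of transcription listed there, were found in RefSeq (GRCm38.p6) for 8 of the 9 members, Mbp being the one without an entry. They are printed for Mobp, which varied most between columns, for Cnp, Mag and Cldn11, which passed the test between 5xFAD and WT, and for Mal, which did not follow the other members. Capitals mark, on either strand, ACAAAG, read as CTTTGT on the other strand, and ACAATG, both bound by SOX factors such as SOX10, CAGCTG for OLIG factors, and CTGGCAC for MYRF. No 2 matches overlap in the windows printed. The Mobp window is at chr9:120149492-120149791 (plus strand), that of Cnp at chr11:100574689-100574988 (plus), that of Mag, the first of its 3 listed starts, at chr7:30914814-30915113 (minus), that of Cldn11 at chr3:31149670-31149969 (plus) and that of Mal at chr2:127656646-127656945 (minus).
Mobp: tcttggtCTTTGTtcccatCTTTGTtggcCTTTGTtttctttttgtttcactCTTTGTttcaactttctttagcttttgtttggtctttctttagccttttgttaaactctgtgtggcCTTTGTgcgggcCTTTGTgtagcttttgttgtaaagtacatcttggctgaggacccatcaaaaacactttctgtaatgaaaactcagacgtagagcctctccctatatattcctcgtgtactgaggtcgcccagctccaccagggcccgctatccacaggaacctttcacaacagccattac
Cnp: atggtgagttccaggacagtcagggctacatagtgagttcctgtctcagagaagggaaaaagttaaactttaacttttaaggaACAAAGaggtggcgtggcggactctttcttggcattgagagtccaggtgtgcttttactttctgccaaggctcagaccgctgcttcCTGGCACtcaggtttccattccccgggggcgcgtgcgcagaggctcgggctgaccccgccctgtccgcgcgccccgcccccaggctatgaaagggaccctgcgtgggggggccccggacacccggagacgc
Mag: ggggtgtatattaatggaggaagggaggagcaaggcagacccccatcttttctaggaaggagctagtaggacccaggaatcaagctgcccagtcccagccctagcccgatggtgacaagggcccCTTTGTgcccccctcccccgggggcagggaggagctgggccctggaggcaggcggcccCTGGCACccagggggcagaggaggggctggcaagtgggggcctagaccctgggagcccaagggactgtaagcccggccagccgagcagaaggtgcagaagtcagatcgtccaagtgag
Cldn11: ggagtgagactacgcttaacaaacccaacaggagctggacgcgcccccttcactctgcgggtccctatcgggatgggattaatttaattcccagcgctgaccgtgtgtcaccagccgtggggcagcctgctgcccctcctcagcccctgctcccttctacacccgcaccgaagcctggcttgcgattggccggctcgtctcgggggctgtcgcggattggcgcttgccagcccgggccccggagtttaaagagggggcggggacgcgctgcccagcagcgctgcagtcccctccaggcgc
Mal: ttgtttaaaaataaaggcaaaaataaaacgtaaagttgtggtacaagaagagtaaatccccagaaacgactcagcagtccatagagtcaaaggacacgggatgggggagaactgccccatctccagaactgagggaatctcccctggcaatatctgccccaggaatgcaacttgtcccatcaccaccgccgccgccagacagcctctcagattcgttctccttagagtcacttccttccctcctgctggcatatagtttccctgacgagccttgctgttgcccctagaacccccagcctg
The Mobp window held 6 matches to ACAAAG, and only 3 of 32851 mouse promoters held 5 or more (0.009%). The windows of Cnp and Mag each held 1 match to ACAAAG and 1 to CTGGCAC, and Cldn11 and Mal held no match to any of the letters searched. ACAAAG was found for 4 of the 8 matched members and in 18.7% of all promoters, and CTGGCAC for 3 of 8 and in 5.01% of all promoters. A member counts when any of its windows held a match, while the shares of all promoters are per window. CAGCTG was found for 1 member (Opalin) and in 16.3% of promoters, and ACAATG for 1 member (Ermn) and in 12.6%. A match describes letters in the window and shows no binding.

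Depth differed by genotype. In 19959 of 19963 rows the deposited values are whole multiples of a step that is particular to the column. Taken as counts, an inference from the values, these multiples sum to between 3207095 and 5793534 per 5xFAD-LynKO column, 3205406 and 4148785 per 5xFAD column, and 1194249 and 2548601 per WT column. The members had 44 to 1628 such counts each, which would give a counting error of 2.48% to 15.1%, which leaves out all other error. The negative probe stood at 0.911 to 0.968 of the median target in 5xFAD-LynKO, 0.933 to 0.957 in 5xFAD and 0.859 to 0.918 in WT columns, so the median target is itself near background. The TMEM119 label was not borne out by its own transcript: Tmem119 was at 0.729 to 0.819 of the negative probe in 5xFAD-LynKO, 0.578 to 0.819 in 5xFAD and 0.847 to 1.09 in WT columns. Of 14 microglial markers 7 were above background, against 12 of 13 neuronal and 7 of 12 astrocytic ones. A target counts as above background when 5 or more columns hold it at over 1.5 times the negative probe, and 3364 of the 19962 met this.

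Transcripts of Mbp and Mobp were measurable in every column, in segments that were only taken from the design text as selected for microglia. Mbp and Mobp exceeded 1.5 times the negative probe in 16 of 16 columns and Cnp in 13, and these 3 members were above background. Ermn, Mag and Cldn11 exceeded it in 3 columns each, Opalin in 2, Mog in 1 and Mal in 0. In segments of this kind fewer oligodendrocyte processes and less RNA in each cannot be told apart.

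Mbp was at 3.31, 2.12, 1.94, 2.84 and 1.39 times the median in 5xFAD-LynKO columns 1 to 5, and at 1.51, 2.23, 1.55, 1.68 and 1.62 times in 5xFAD columns 1 to 5. In the 6 WT columns it ranged from 1.71 to 5.64 with a median of 2.13. The 3 genotypes overlapped, and WT column 1 was the highest of all 16 columns at 6.28 times the negative probe. Mobp encodes a small basic protein of compact myelin and spread further. It stood at 6.73, 3.19, 3.09, 5.87 and 1.60 times the median in 5xFAD-LynKO, and at 2.10, 3.88, 1.80, 2.60 and 2.09 times in 5xFAD. Its WT columns ran from 2.32 to 11.6 with a median of 3.66. The highest Mobp column was 7.23 times the lowest as measured. After subtraction of the negative probe its excess was 0.691 medians in 5xFAD-LynKO column 5 and 10.7 medians in WT column 1, a 15.5-fold range. The like ranges of excess were 9.89-fold for Mbp and 7.10-fold for Cnp.

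Cldn11 encodes the claudin of myelin tight junctions. It was at 1.60, 1.05, 1.07, 1.13 and 1.04 times the median in 5xFAD-LynKO, and at 0.987, 1.25, 0.941, 0.903 and 0.898 times in 5xFAD. The WT columns ranged from 1.01 to 2.11, with a median of 1.25. Only WT columns 1 and 4 and 5xFAD-LynKO column 1 exceeded 1.5 times the negative probe, and the genotypes overlapped. Mal, a proteolipid of membrane sorting in myelinating cells, exceeded 1.5 times the negative probe in no column. It was at 0.860, 0.798, 0.773, 0.914 and 0.801 times the median in 5xFAD-LynKO, at 0.844, 0.851, 0.784, 0.869 and 0.722 times in 5xFAD and from 0.877 to 1.05 in WT columns with a median of 0.943. Its ratio to the negative probe lay between 0.759 and 1.18 over all 16 columns, so it was not told apart from background.

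Cnp encodes a phosphodiesterase that keeps cytoplasmic channels of the sheath open. It was at 2.26, 1.53, 1.47, 1.74 and 1.51 times the median in 5xFAD-LynKO, and at 1.47, 1.82, 1.39, 1.31 and 1.35 times in 5xFAD. In WT columns it ranged from 1.38 to 3.59 with a median of 1.89. WT column 3 lay among the 5xFAD columns, and the other 5 WT columns lay above all of them.

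Mag and Mog encode immunoglobulin-family glycoproteins of the sheath surfaces. Mag was at 1.41, 1.19, 1.03, 1.24 and 1.05 times the median in 5xFAD-LynKO and at 1.12, 1.04, 0.993, 1.06 and 0.938 times in 5xFAD, against a WT range from 1 to 1.73 with a median of 1.31. Mog was at 1.38, 0.977, 1.05, 1.33 and 0.973 times in 5xFAD-LynKO and at 1.15, 1.21, 0.948, 1.08 and 1.03 times in 5xFAD, against 0.80 to 1.54 with a median of 1.20 in WT. Both overlapped across all 3 genotypes, and Mog was below the negative probe in 5xFAD column 3 and in WT columns 3 and 5. Ermn encodes an actin-binding protein of the oligodendrocyte cytoskeleton, and Opalin a sialylated membrane protein of mature oligodendrocytes. Ermn was at 1.55, 1.08, 1.25, 1.37 and 0.973 times the median in 5xFAD-LynKO and at 1.27, 1.29, 1.28, 1.09 and 1.26 times in 5xFAD, against 1.04 to 2.19 with a median of 1.23 in WT. Opalin was at 1.41, 0.969, 1.03, 1.01 and 1.04 times in 5xFAD-LynKO and at 1.03, 1.11, 1.09, 1.14 and 0.977 times in 5xFAD, against 1.02 to 1.53 with a median of 1.21 in WT. Each of them was highest in WT column 1 and overlapped across genotypes.

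**Figure D1:**
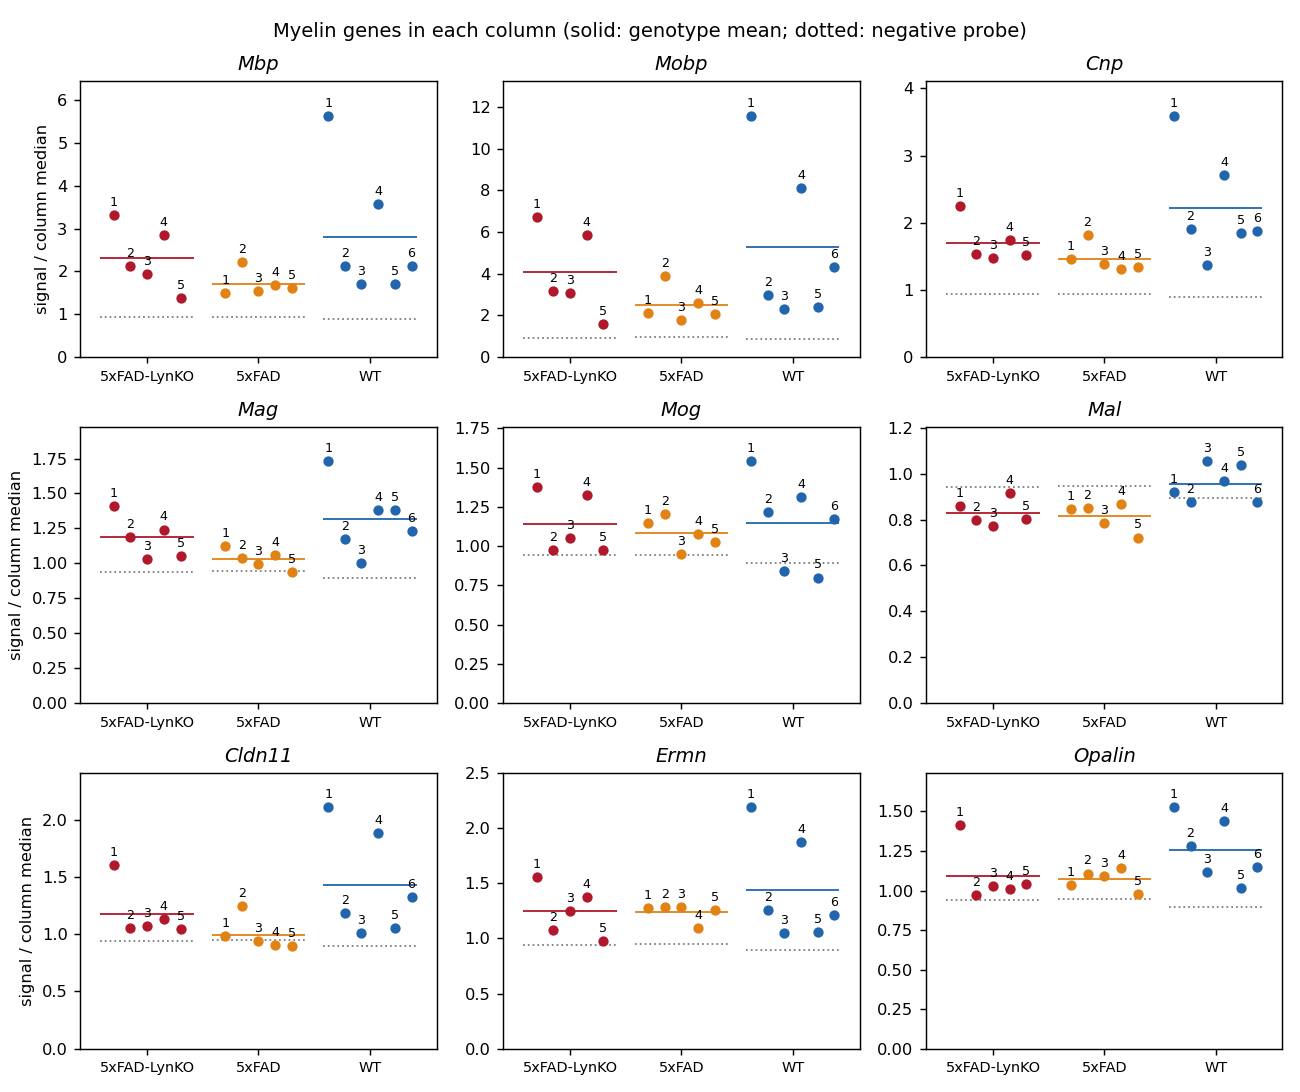
Signal over the column median (vertical axis, linear) of each myelin gene in each column, with 5xFAD-LynKO, 5xFAD and WT from left to right, the heading number above each point, a solid line at the genotype mean and a dotted line at the genotype's mean negative probe. WT columns 1 and 4 and 5xFAD-LynKO columns 1 and 4 stand above their groups for most genes, and Mal stays at or near the negative probe.

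The same few columns stood out for nearly every member. In 5xFAD-LynKO brain, column 1 was the highest of its genotype for 8 of 9 members, and columns 1 and 4 were the top pair for 8 of 9. In 5xFAD brain, column 2 was the highest for 6 of 9. In WT brain, column 1 was the highest for 8 of 9 members, with columns 1 and 4 the top pair for 7 of 9. The exception to both column 1 results was Mal. The geometric mean of the 9 ratios to the median was 1.88 in 5xFAD-LynKO column 1 and 1.60 in column 4, 1.45 in 5xFAD column 2, and 2.50 and 2.06 in WT columns 1 and 4. Over all columns it ranged from 1.13 to 1.88 in 5xFAD-LynKO, from 1.15 to 1.45 in 5xFAD and from 1.21 to 2.50 in WT, so the 3 genotypes overlapped. The microglial markers were not highest in the same WT pair: their mean ratio to the median was 2.95 in WT column 1 and 2.60 in WT column 3, and 1.40 in WT column 4.

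The members moved together across columns. Over the 16 columns the 28 pairs of members without Mal had Pearson correlations of log2 level from 0.57 to 0.98 with a median of 0.83, and the pair of Mbp and Mobp had the highest. With the genotype means removed, the median was 0.85. The 2 columns farthest from the median of the members' mean level were WT columns 1 and 4. Without them the 28 pairs ranged from 0.25 to 0.97 with a median of 0.64. Mal had a median correlation of 0.34 with the other members, and of -0.02 with genotype means removed. These values are descriptions, since the columns share a scaling and differ in depth.

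Among the 10 targets above background whose pattern was most like the members' mean log2 level were Apod (Pearson r = 0.96 over 16 columns), Dbndd2 (0.92), Csrp1 (0.91), Car2 (0.91), Gatm (0.88), Septin4 (0.86), Cryab (0.86), Trf (0.85) and Fth1 (0.85). Apod, a secreted lipid carrier, was at 1.81, 1.06, 1.15, 1.80 and 1.01 times the median in 5xFAD-LynKO, at 1.16, 1.30, 0.909, 1.09 and 1.06 times in 5xFAD, and from 1.12 to 4.38 in WT. Its highest columns were again 5xFAD-LynKO column 1, 5xFAD column 2 and WT column 1. Without WT columns 1 and 4 the r of Apod was 0.91 and that of Cryab 0.59. With genotype means removed, 8 of the 10 targets were again among the 10 most alike, and Gfap and Qk entered with r of 0.90 and 0.86. With the means left in, r was 0.75 for Gfap and 0.83 for Qk, and 0.32 and 0.54 without WT columns 1 and 4. Gfap encodes the astrocyte filament protein whose staining chose the paired segments of the study. It was at 1.31, 1.01, 1.11, 1.64 and 1.01 times the median in 5xFAD-LynKO, at 1.34, 1.26, 1.12, 1.07 and 1.06 times in 5xFAD, and from 2.26 to 6.18 in WT. WT columns 1 and 4 were its highest columns, at 6.18 and 4.94 times. Its part in the members' pattern was not tested.

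**Figure D2:**
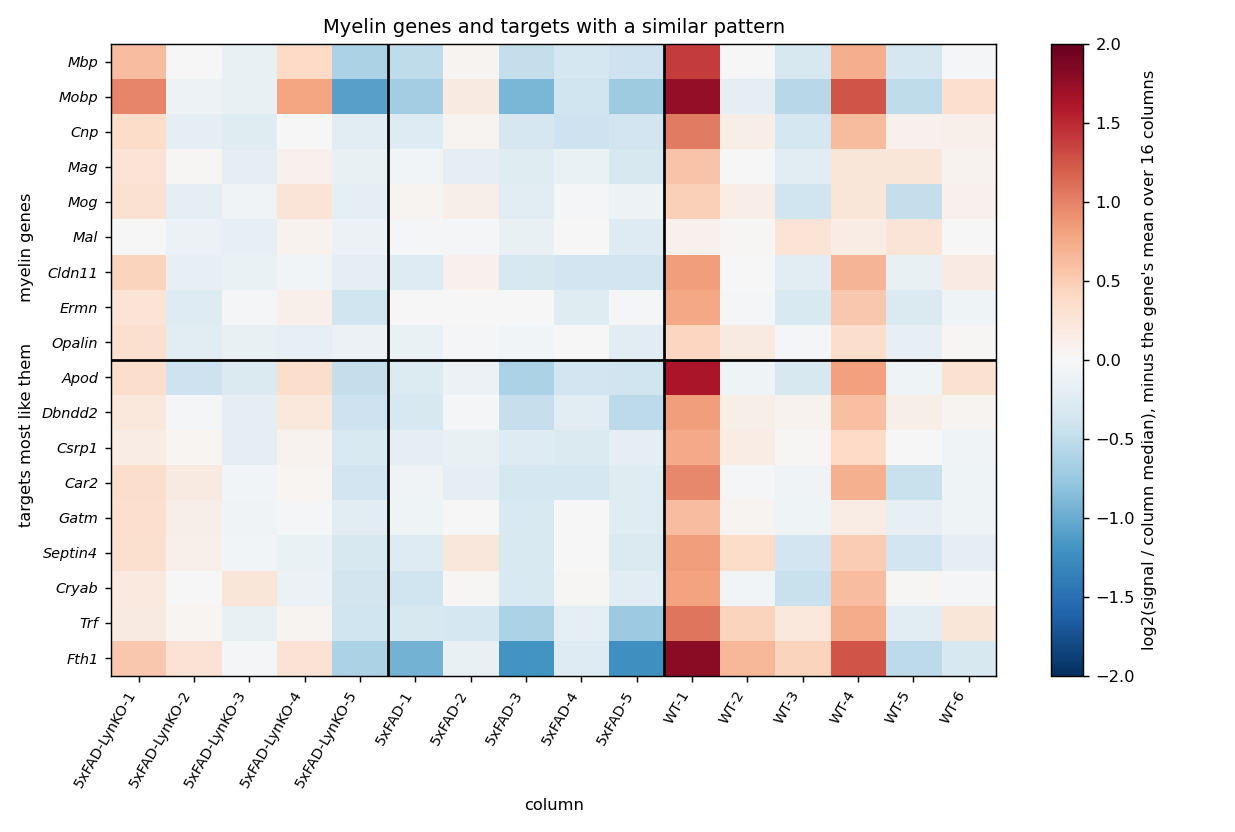
Log2 signal over the column median, minus each gene's own mean over the 16 columns (colour), for the 9 myelin genes above the horizontal line and 9 targets with a similar pattern below it, with 5xFAD-LynKO, 5xFAD and WT columns from left to right. WT columns 1 and 4 and 5xFAD-LynKO column 1 are red for nearly all genes shown, and Mal is the pale exception.

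Cnp, Cldn11 and Mag were lower in 5xFAD than in WT columns. Cnp averaged 1.47 ± 0.20 times the median in 5xFAD and 2.22 ± 0.80 times in WT (SD, n = 5 and 6 columns), and the log2 difference was -0.53 ± 0.16 (standard error; limma adjusted p = 0.0298). Cldn11 averaged 0.995 ± 0.145 in 5xFAD and 1.43 ± 0.46 in WT, a log2 difference of -0.47 ± 0.15 (limma adjusted p = 0.0353). Mag averaged 1.03 ± 0.07 in 5xFAD and 1.32 ± 0.25 in WT, at -0.33 ± 0.11 (limma adjusted p = 0.0344). These 3 of 9 fell and 0 of 9 rose. Over all 19960 targets tested, 8.23% were lower and 5.99% were higher in 5xFAD. Of the 3363 tested targets above background, 18.2% were lower, and of the 3 members in that class 1 was (Cnp). The share of all calls that were lower turned with the scaling: it was 57.9% with the column median, 40.0% with the upper quartile, 85.6% with the negative probe and 20.2% with the negative probe subtracted.

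The members with the most signal had the largest differences but missed the threshold. Mobp averaged 2.49 ± 0.83 in 5xFAD and 5.29 ± 3.77 in WT, at -0.85 ± 0.36 (limma adjusted p = 0.109). Mbp averaged 1.72 ± 0.29 in 5xFAD and 2.81 ± 1.54 in WT, at -0.57 ± 0.23 (limma adjusted p = 0.0951). For both, WT columns 1 and 4 were the highest of the 16 columns. Mal was the only member whose columns did not overlap, all lower in 5xFAD, with a log2 difference of -0.23 (limma adjusted p = 0.0516), and 2.89% of all targets lay apart in that direction. This gap lay within background signal, at 0.759 to 0.932 of the negative probe in 5xFAD and 0.955 to 1.18 in WT columns. Opalin was at -0.21 (adjusted p = 0.155), Ermn at -0.16 (0.499) and Mog at -0.05 (0.823). The median over the 9 members was -0.33, against 0.01 over all targets and -0.16 over those above background.

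The number of calls moved with single columns, over the whole table as well as among the members. Without WT column 1, 0 members were called and 6.74% of all targets were lower. Without 5xFAD column 3 or 5xFAD column 5, 0 members were called while the share of all targets fell to 4.45% and 4.48%. Without WT column 4, 1 member was called and 9.92% of targets were lower, and without 5xFAD column 1, 1 member and 6.25%. With WT columns 1 and 4 both left out, 0 of 9 were called and 8.97% of all targets were lower. These 2 columns were the highest of WT for 7 of 9 members, so smaller differences without them follow from that choice. The Cnp difference was then -0.25, that of Cldn11 -0.20 and that of Mag -0.21. Mobp was at -0.28 and Mbp at -0.16, while Mog stood at 0.12 and Ermn at 0.12. Mal, near background in every column, stayed at -0.24. The calls moved with the scaling too. With the upper quartile in place of the median, 0 members and 6.00% of all targets were lower, and with the negative probe, which stood lower against the median in WT, 5 members and 14.7% of all targets. As deposited, without rescaling, all 9 differences were above 0 and 7 were called higher, as were 99.3% of all targets, on a scale where the median of all targets was itself 0.88 above 0.

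**Figure D3:**
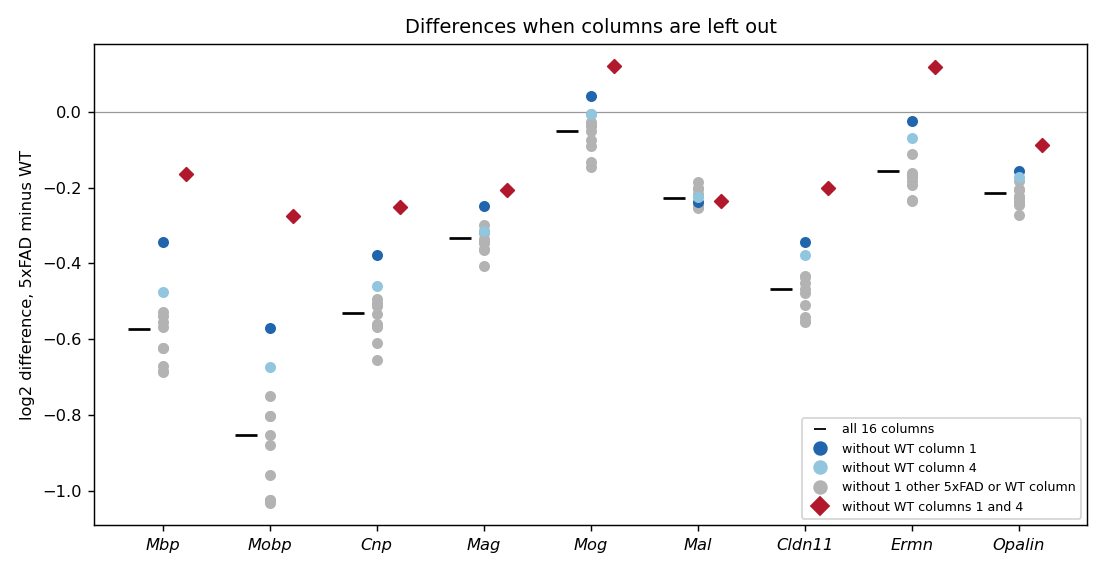
Log2 difference, 5xFAD minus WT (vertical axis), of each myelin gene with all 16 columns (bar), with WT column 1 left out (dark blue), with WT column 4 left out (light blue), with 1 other 5xFAD or WT column left out (grey), and with WT columns 1 and 4 both left out (red). The differences of Mbp, Mobp, Cnp and Cldn11 shrink toward 0 without WT columns 1 and 4, and those of Mog and Ermn lie above 0. That of Mal, a gene near background in every column, stays near -0.23.

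Microglial markers were lower in the same comparison. Of the 13 microglial markers tested, Tmem119 being left out, 7 were lower in 5xFAD than in WT and 0 higher. The mean ratio to the median over all 14, Tmem119 among them, was 1.09 to 1.28 in 5xFAD and 1.33 to 2.95 in WT columns. Of 11 astrocytic markers 1 (Glul) was lower, of 13 neuronal markers 1 (Rbfox3) and of 10 endothelial and pericyte markers 1 (Vtn). Of all targets 8.23% were lower, and of those above background, as 12 of the 13 neuronal markers are, 18.2%. The median log2 difference was -0.41 for the microglial, -0.37 for the neuronal and -0.14 for the astrocytic markers. It was -0.04 for the endothelial and pericyte markers and -0.33 for the 9 members. Of the 13 neuronal differences 11 were below 0 and 2 above. Below 0 were also 84% of the tested targets above background and 48.7% of all targets. Gfap, the astrocytic marker left out of the calls because its staining chose segments, averaged 1.17 ± 0.12 times the median in 5xFAD and 3.52 ± 1.63 times in WT, and its columns did not overlap. The 8 genes listed for Schwann cells, the cells of peripheral myelin, gave 0 calls at a mean ratio of 1.06 to 1.19 in 5xFAD and 1.11 to 1.20 in WT. Only 1 of the 8, Drp2, was above background, and not all of the 8 are particular to these cells. The negative probe over the median and the depth differed between the genotypes as given above. The part of each of these in the members' differences was not tested.

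Further oligodendrocyte genes, from 5 lists chosen with earlier results of these data known, gave mixed calls. The counts stand beside 8.23% of all targets lower and 5.99% higher, and 18.2% lower among targets above background. Of 24 other myelin membrane and junction genes, 8 of them above background, 3 were lower in 5xFAD and 1 higher, with a median of -0.13. Among the lower ones were the tetraspanins Tspan2 at -0.44 (limma adjusted p = 0.00596) and Cd9 at -0.41 (0.0407). Myo1d was higher at 0.44 (0.00992), with a mean of 0.972 times the median in 5xFAD and 0.711 times in WT. Neither Tspan2 nor Myo1d was above background. Of 16 genes of myelin lipid synthesis and oligodendrocyte metabolism, 5 of them above background, 3 were lower and 0 higher, with a median of -0.07. Trf, the transferrin that oligodendrocytes make in the brain, averaged 1.14 ± 0.17 in 5xFAD and 2.14 ± 0.67 in WT, at -0.86 ± 0.15 (limma adjusted p = 0.0015), and Pde4b (-0.34) and Ugt8a (-0.33), the galactosyltransferase of myelin lipids, were the others. Ugt8a did not exceed 1.16 times the negative probe in any column, and Pde4b did not exceed 1.28 times.

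Of 12 genes listed as transcription factors, among which Carns1 encodes an enzyme, 0 were lower and 2 were higher in 5xFAD. The higher ones were Tcf7l2 at 0.43 (limma adjusted p = 0.00604) and Nkx2-2 at 0.41 (0.0108), and 0 of the 12 were above background. Sox10, the factor that drives myelin genes, averaged 1.22 ± 0.09 in 5xFAD and 1.35 ± 0.22 in WT (limma adjusted p = 0.394). Of 12 precursor genes, 2 of them above background, 1 was lower (Tnr at -0.38) and 0 higher, with a median of 0.04. Of 12 genes linked to disease-associated oligodendrocytes, 4 of them above background, 6 were lower and 0 higher. Among the lower ones were C4b at -0.72 (limma adjusted p = 0.00146), B2m at -0.88 (0.00262), Cd63 at -0.44 (0.00787) and Serpina3n at -0.34 (0.0268). Apod, described above for its likeness to the members, was lower as well at -0.73 (limma adjusted p = 0.0285). The 4 genes named before it are also made by microglia or astrocytes, and of them C4b and Serpina3n were not above background. Here too, 8.23% of all targets were lower and 5.99% higher.

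Loss of Lyn on the 5xFAD background was not accompanied by a called change of any myelin gene. Against 5xFAD, 0 of 9 members passed limma, as did 0% of the 19960 targets in either direction, of which 2255 had an unadjusted p under 0.05. Mobp averaged 4.10 ± 2.13 in 5xFAD-LynKO and 2.49 ± 0.83 in 5xFAD (SD, n = 5 columns each), a log2 difference of 0.59 with a 95% interval from -0.18 to 1.37. Mbp averaged 2.32 ± 0.76 in 5xFAD-LynKO and 1.72 ± 0.29 in 5xFAD, at 0.38 with an interval from -0.11 to 0.88. Cnp was at 0.21, from -0.14 to 0.56, and Cldn11 at 0.23, from -0.09 to 0.55. Mag was at 0.20, from -0.03 to 0.42. Mog (0.06), Mal (0.03), Opalin (0.02) and Ermn (-0.01) lay near 0. The adjusted p ran from 0.525 to 0.994. The median over the members was 0.20, and 8 of 9 were above 0. Over the tested targets above background the median was 0.07 with 28.4% below 0, and over all targets 0.002 with 49.2% below 0. With 5xFAD-LynKO columns 1 and 4 and WT columns 1 and 4 left out, a choice made after the data were seen, Mobp was at 0.07 and Mbp at 0.07.

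Against WT, 0 of 9 members passed limma in 5xFAD-LynKO columns, where 0.0551% of all targets were lower and 0.00501% higher. Cnp averaged 1.70 ± 0.33 in 5xFAD-LynKO and 2.22 ± 0.80 in WT, at -0.32 with an interval from -0.66 to 0.01 (limma adjusted p = 0.575). Mobp averaged 4.10 ± 2.13 in 5xFAD-LynKO and 5.29 ± 3.77 in WT, at -0.26 with an interval from -0.997 to 0.48. Mbp was at -0.19, from -0.66 to 0.29. Mal was at -0.20, from -0.36 to -0.04, with an adjusted p of 0.522. Of the 9 differences 8 were below 0 and Mog was at 0.01, with a median of -0.20. Over the tested targets above background the median was -0.09 with 81.2% below 0, and over all targets 0.003 with 48.8% below 0. The 3 comparisons share columns in pairs, so their values are not independent. In the 5 oligodendrocyte lists, C4b was the only gene called against WT, at -0.71 (limma adjusted p = 0.0199), and 0 were called against 5xFAD.

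**Figure D4:**
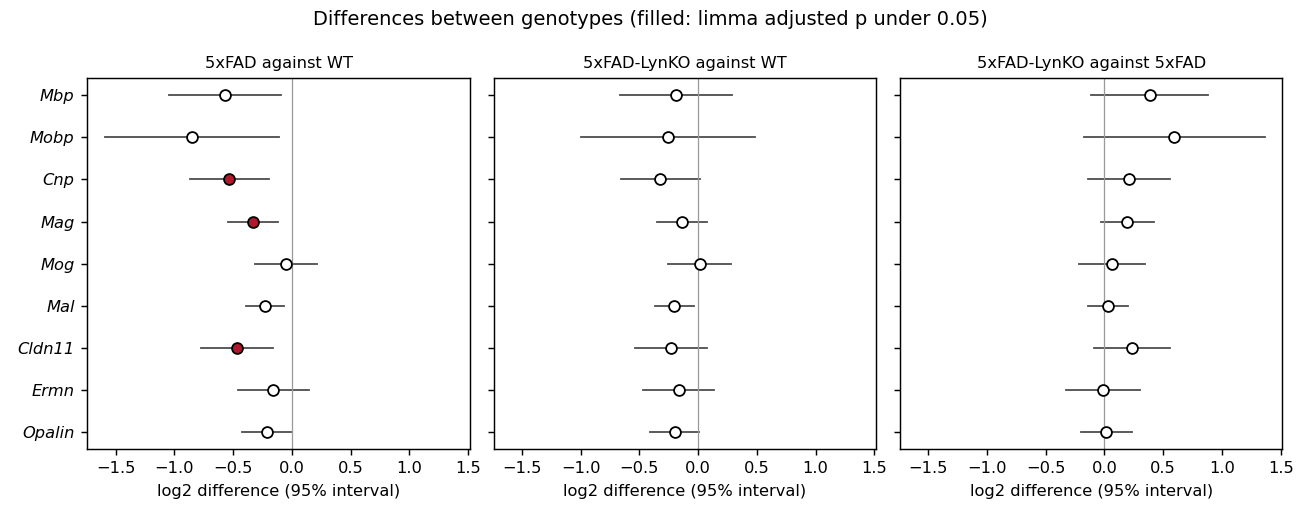
Log2 difference with its 95% interval (horizontal axis) of each myelin gene for 5xFAD against WT, 5xFAD-LynKO against WT and 5xFAD-LynKO against 5xFAD, with filled points where the limma adjusted p was under 0.05. Cnp, Mag and Cldn11 are filled in 5xFAD against WT, and no point is filled in the other panels.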

How the data were processed

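GeoMx tags were sequenced on an Illumina instrument, per the labels' protocols. The deposited values are a signal, as if counts had been multiplied by 1 factor per column; the software, the probe filters and the scaling method are not named by the labels or the file. Nearly all rows of a column (19959 of 19963) were multiples of a common step within 1e-06, but since even the lowest value held 9 to 66 steps, a count model was not applied. All columns of a genotype had the same deposited median (196.1 for 5xFAD-LynKO, 159.4 for 5xFAD and 86.7 for WT).

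Levels were log2(value + 1) minus the column's median over targets. Differences on this scale understate changes near background. All 16 columns entered limma 3.58.1 (R 4.3.3; lmFit, contrasts, eBayes with trend) without covariates, on 19960 targets (without Tmem119, Gfap and the control probe), and p-values were adjusted by Benjamini-Hochberg with calls under 0.05. The fit was tested on simulated data.

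The members and the gene lists were chosen with earlier results of these data known. Genes named are all members, up to 4 called and 2 abundant uncalled genes of each list where they are described, and the 10 targets most like the members; some of these are not reported here. Of the list genes, Sept4 stands in the table as Septin4 and was not matched. With the multiples taken as counts, columns of a genotype differed by more than sampling noise (chi-square over degrees of freedom of 1.16 for the nearest pair and 6.65 for the farthest). The nearest pair was WT columns 5 and 6, and 5xFAD columns 3 and 5 stood at 1.18. Repeats can also differ by more than sampling noise, so these values cannot tell whether any column repeats another. Each column was counted once, and the columns are not shown to be independent.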

Additional observations from a re-analysis of the deposited data

Results flagged for a closer look

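Within each genotype the gap between the most extreme column and the next, over the group's whole range, was tested for each of the 9 members by Dixon's criterion, in 27 groups of 5 or 6 columns. It passed in 5 of them, where chance gives about 1 in 20 for independent groups. The 27 groups are not independent, since the members moved together across the same columns. The flags repeat 5xFAD column 2 and 5xFAD-LynKO column 1, so their number cannot be measured against that rate. Mbp was at 2.23 times the column median in 5xFAD column 2, above the other 5xFAD columns. Cldn11 was at 1.60 times in 5xFAD-LynKO column 1 and at 1.25 times in 5xFAD column 2, each above the rest of its genotype. Opalin was at 1.41 times in 5xFAD-LynKO column 1. Ermn was at 1.09 times in 5xFAD column 4, below the other 5xFAD columns. In the 6 WT columns the criterion was passed by 0 members, and columns 1 and 4 were both high for most of them.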

How the results depend on the processing

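Values are log2 differences unless they count calls, and a percentage is the share of all targets tested that were lower, 8.23% in the fit reported. The count of members called in 5xFAD against WT (3) was 0 with the upper quartile (6.00%), 5 with the negative probe (14.7%), 1 with quantile normalization (7.97%), 1 with the negative probe subtracted (2.32%), 1 among targets above background (only 3 members tested, 17.3%), 0 without WT columns 1 and 4 (8.97%; also with 5xFAD-LynKO columns 1 and 4 left out, chosen after seeing the data) and 0 to 4 when 1 column was left out (4.45% to 10.9%). Both pseudocounts (4 and 3), array weights (4) and leaving out WT columns 1 and 3 (2) moved it by at most 1.5 times. For 5xFAD-LynKO the count was 0 against WT and 0 against 5xFAD under each of these.

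The heading numbers were not used as pairs in the main fit. Of 15 same-numbered pairs 8 correlated above 0.1, from -0.389 to 0.665, and in 6 the same number correlated best. Whether the numbers pair columns cannot be told from these values. With the heading number as a block, 5 members (7.68% of all targets) were called lower in 5xFAD against WT, 0 in both other comparisons, and 22, 2 and 0 genes of the oligodendrocyte lists for 5xFAD against WT, 5xFAD-LynKO against WT and 5xFAD-LynKO against 5xFAD.

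Those lists had 16 genes called in 5xFAD against WT, and 25 with the negative probe, 4 among targets above background and 11 to 19 with 1 column left out. In 5xFAD-LynKO against WT, 1 was called, and 2 with the negative probe or with array weights, 0 among targets above background, without WT columns 1 and 4, or also without 5xFAD-LynKO columns 1 and 4, and 0 to 2 with 1 column left out. Array weights gave 2 in 5xFAD-LynKO against 5xFAD, where 0 were called. Without rescaling, the comparisons gave 7, 9 and 8 members called and 70, 75 and 58 list genes, since the genotype medians were then left apart by 0.88, 1.17 and 0.30. On that scale 5xFAD against WT gave Mbp 0.30, Mobp 0.019, Cnp 0.34, Mag 0.54, Mog 0.82, Mal 0.64, Cldn11 0.40, Ermn 0.72 and Opalin 0.66. 5xFAD-LynKO against WT gave Mbp 0.98, Mobp 0.91, Cnp 0.85, Mag 1.03, Mal 0.97, Cldn11 0.94, Ermn 1.00 and Opalin 0.97, and 5xFAD-LynKO against 5xFAD gave Ermn 0.29.

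Other changes of sign concerned differences that were not called. In 5xFAD against WT, Mog was 0.0032 with the upper quartile, 0.40 with the negative probe subtracted and 0.12 without WT columns 1 and 4, and ran from -0.15 to 0.041 with 1 column left out. Ermn was 0.48 with the negative probe subtracted and 0.12 without WT columns 1 and 4. In 5xFAD-LynKO against WT, Mog was -0.057 with the negative probe and ran from -0.081 to 0.11 with 1 column left out, Mbp from -0.33 to 0.042 and Mobp from -0.48 to 0.036. Quantile normalization gave Mbp 0.094 and Mobp 0.10 there. Subtraction of the negative probe gave Cnp 0.29, Ermn 0.22, Mag 0.19, Mbp 0.60 and Mobp 0.56, and leaving out WT columns 1 and 4 gave Cldn11 0.035, Ermn 0.11, Mbp 0.22 and Mobp 0.32. In 5xFAD-LynKO against 5xFAD, Ermn was 0.00092 with the negative probe and 0.022 after quantile normalization, Mal -0.13 with the negative probe subtracted and Opalin -0.0020 with array weights. Without WT and 5xFAD-LynKO columns 1 and 4, Mal was -0.039, Mog -0.11 and Opalin -0.079. With 1 column left out, Ermn ran from -0.093 to 0.075, Mal from -0.016 to 0.051, Mog from -0.0064 to 0.12 and Opalin from -0.079 to 0.057. The cause of these changes was not tested.

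The members' mean level spread 2.22-fold over columns, and 2.31-fold with the negative probe or 2.24-fold with the upper quartile in place of the median. Over all targets in place of those above background, 6 of the 10 most similar targets were shared. Of the members, 6 are near background, where differences are compressed and the order of columns is uncertain. Neither the animal of a column nor its place in the brain is known here, and 5 or 6 columns per genotype limit what a difference can show.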
